A study of Mus musculus with 9 samples.

Results

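The genes described here encode the microtubules and neurofilaments of neurons and the proteins that bind them: Map2, Map1a, Map1b, Mapt, Tuba1a, Tubb3, Tubb2a, Nefl, Nefm and Nefh. They were taken by name from the array's annotation, by a rule with no threshold on a measured value. The array held 17 probes for these 10 genes, of 39429 probes in all. All 17 were well above background on all 9 arrays and passed the filter on dim probes, which 27993 probes passed.

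Microtubules are hollow polymers of alpha- and beta-tubulin that carry transport along axons and dendrites. Structural microtubule-associated proteins (MAPs) bind and stabilise them, and in mature neurons MAP2 lies mostly in dendrites and tau mostly in axons. Neurofilaments are intermediate filaments built from light, medium and heavy chains, and they are most abundant in large myelinated axons. In the hippocampus these proteins form the core of the dendritic trees and projecting axons of the excitatory neurons.

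RNA came from the hippocampus of male mice aged 9 months on the C57BL/6J background, with 3 IF1-KO, 3 CRL and 3 IF1-TG mice and 1 single-dye Agilent array per mouse. IF1 is the protein that inhibits the mitochondrial ATP synthase. IF1-KO mice carried a floxed IF1 gene recombined by Camk2a-Cre, and IF1-TG mice carried human IF1 on a tetracycline-regulated element driven by Camk2a-tTA. Both drivers act mostly in excitatory forebrain neurons from early postnatal life, so glia, interneurons and vessels in the sample were not targeted. The labels name the CRL mice only as controls and do not say whether they carried Cre or tTA. Signals are given as the log2 intensity minus that of the array's 75th percentile, and a difference is a difference of such values. A probe was called when the fold change was at least 1.5 and the unadjusted P value from limma was below 0.05, the thresholds of the study's methods. Benjamini-Hochberg adjusted values over all 27993 probes are given beside.

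Some features of the arrays touch every result. On the IF1-TG arrays 66.7% to 69.5% of probes were well above background, less than the 71.0% to 74.9% on all other arrays, and the part of this in the IF1-TG differences was not tested. The arrays were hybridized on 3 slides. Of the IF1-TG arrays, replicates 1 and 2 were alone on slide 1 and replicate 3 was on slide 2. CRL replicates 1 and 2 were also on slide 2 and CRL replicate 3 on slide 3. IF1-KO replicate 1 was on slide 2 and the other IF1-KO arrays on slide 3. Atpif1, the targeted gene, had a log2 signal of 6.19 to 6.34 on the CRL arrays and 6.38 to 6.51 on the IF1-TG arrays. Whether its probe on this mouse array reads the human IF1 of the transgene was not tested. Among the arrays carrying the IF1-KO label, replicates 2 and 3 had 5.20 and 5.53 but replicate 1 had 6.43, within the range of the other genotypes. Its difference between IF1-KO and CRL mice was -0.56 (unadjusted P = 0.0725 from limma). It was -0.91 when this replicate 1 was dropped. Values without the array that carries this label are therefore given where they change a call, except for genes too near background to be read. All 8 pan-neuronal markers and all 10 markers of excitatory hippocampal neurons were detected. The summed level of the excitatory markers was 6.24 to 6.40 on the CRL arrays, 6.24 to 6.37 on the IF1-KO arrays and 6.29 to 6.42 on the IF1-TG arrays. The summed choroid plexus level ranged from 1.33 to 7.61 between arrays of all 3 genotypes.

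Of the 10 genes, Map1b was the only gene with a called probe. Both of its probes were higher in IF1-TG than in CRL mice, the brighter by a log2 difference of 0.84 (standard error 0.19). Between IF1-TG and IF1-KO mice 0 of the 17 probes were called, where 3.77% of all probes were. Between IF1-TG and CRL mice 2 of 17 were called, both of Map1b, where 4.47% of all probes were. Between IF1-KO and CRL mice 0 of 17 were called, where 1.06% of all probes were. By the brightest probe of each gene, the calls were 0, 1 and 0 of the 10 genes, beside 3.68%, 4.31% and 1.02% of all 21881 genes. No probe of these genes passed an adjusted P of 0.05 in limma, and the smallest adjusted values were 0.66, 0.38 and 1.00 in these comparisons.

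At an unadjusted P below 0.05 alone, 2 of the 17 probes differed between IF1-TG and IF1-KO mice (both of Mapt), where 7.12% of all probes did. Between IF1-TG and CRL mice 3 did (2 of Map1b and 1 of Mapt), beside 8.53% of all probes. Between IF1-KO and CRL mice 2 did (both of Map1b), beside 2.56% of all probes. All of these were higher in the genotype named first. The arrays of the genotypes did not overlap at 4 of 17 probes for IF1-TG and IF1-KO mice (13.6% of all probes), at 7 for IF1-TG and CRL mice (12.2%) and at 3 for IF1-KO and CRL mice (8.00%).

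Most probes of these genes lay slightly higher in IF1-TG mice. Of 17, 14 had a higher mean in IF1-TG than IF1-KO mice, with a median log2 difference of 0.15, and 15 were higher in IF1-TG than in CRL mice, with a median of 0.14. Over all probes 51.3% and 50.1% were higher, with medians of 0.01 and 0.00. Between IF1-KO and CRL mice 8 of 17 were higher, and the median was -0.01. The 8 pan-neuronal markers lay the same way, with 7 higher by the brightest probe in IF1-TG mice in each comparison and medians of 0.15 and 0.12, and with 2 of 8 higher and a median of -0.07 between IF1-KO and CRL mice. None was called by the brightest probe, but another probe of Elavl4, which encodes a neuronal RNA-binding protein, was called in both comparisons, at 0.63 and 0.59 (standard error 0.17 each). Over all 11 probes of these markers 10 and 9 were higher, with medians of 0.26 and 0.12. Their summed level was 7.99 to 8.18 on the IF1-TG arrays, 7.73 to 8.09 on the CRL arrays and 7.86 to 7.92 on the IF1-KO arrays. Of the markers of excitatory neurons, the targeted cells, 6 and 5 of 10 were higher, with medians of 0.04 and 0.02. Of the interneuron markers 2 of 10 were higher in each comparison, with medians of -0.12 and -0.16, and IF1-TG replicate 1 had the lowest summed level, at 6.75 against 7.40 to 7.95 on the other arrays. Markers of other cells and tissues differed in direction. Against IF1-KO mice 9 of 12 oligodendrocyte markers (median 0.25), 8 of 10 microglia markers (0.07), 9 of 9 measured thalamus and midbrain markers (0.58) and 10 of 10 choroid plexus markers (0.87) were higher, but 5 of 10 striatum markers (-0.03) and 2 of 8 endothelium markers (-0.18). Against CRL mice these lists gave 6 of 12 (-0.0071), 6 of 10 (0.05), 5 of 9 (0.15), 10 of 10 (0.36), 1 of 10 (-0.37) and 2 of 8 (-0.17). By the brightest probe, the oligodendrocyte marker Ermn was called against IF1-KO mice (0.96). The thalamus and midbrain marker Lef1 (0.68) and the striatum marker Adora2a (-0.96) were called against CRL mice. Adora2a was also called between IF1-KO and CRL mice (-1.16). By another probe alone, Aqp4 was called against IF1-KO mice, Pvalb against CRL mice and Tcf7l2 against both. The summed microglia level was 5.37 to 5.48 on the IF1-TG arrays, 5.15 to 5.24 on the IF1-KO arrays and 5.34 to 5.42 on the CRL arrays. The summed astrocyte level was also higher on the IF1-TG arrays, at 7.80 to 8.04 against 7.58 to 7.73 on all other arrays. Of 10 astrocyte markers 9 were higher against IF1-KO mice (median 0.19) and 7 against CRL mice (0.11). The part of these markers in the differences was not tested, and in whole hippocampus a change in the share of neurons cannot be told apart from a change in RNA per neuron.

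**Figure D1:**
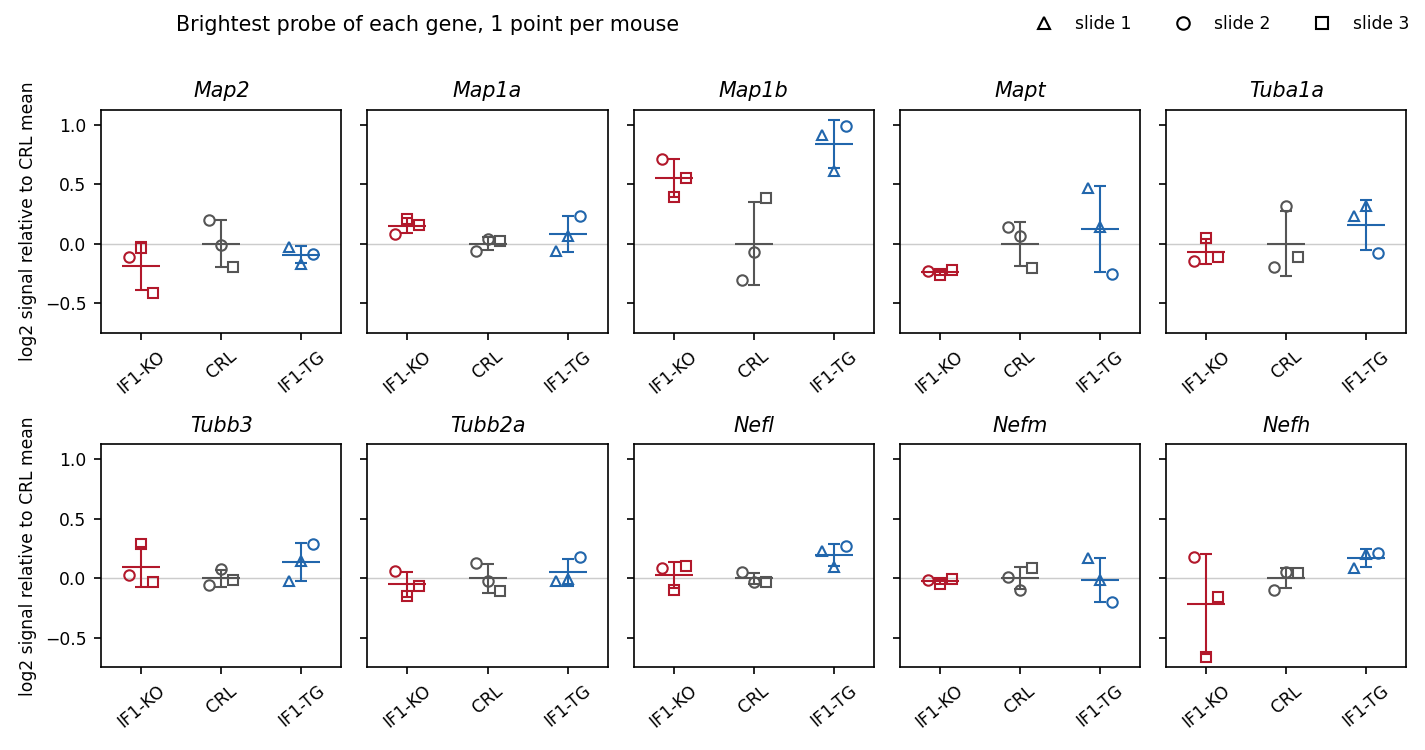
Log2 signal of the brightest probe of each gene relative to its mean in CRL mice (y axis), by genotype (x axis), with 1 point per mouse, a bar for the mean and whiskers for the SD (n = 3). The marker shape gives the slide. Map1b stands apart from the other genes, with IF1-TG mice above all CRL mice, 0.84 above them on average.

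MAP2, the dendritic MAP that neuroscientists stain to outline dendrites, was measured by a pair of probes whose starts lie 240 bases apart on chromosome 1. Their first 30 bases are shown because both target neighbouring sequence of the same transcript and still gave different patterns.
A_52_P22763 (brighter, chr1:66488783-66488842 of mm9): taatacttatgtttgtgtttttacacctag
A_55_P2059307 (dimmer, chr1:66488543-66488602 of mm9): acacagatgtggggtagaagagagatataa

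On the brighter probe the log2 signal was 3.62, 3.70 and 3.31 in IF1-KO mice 1 to 3, 3.93, 3.72 and 3.54 in CRL mice and 3.70, 3.56 and 3.64 in IF1-TG mice. The genotypes overlapped throughout, with a high CRL replicate 1 and a low IF1-KO replicate 3. The difference between IF1-TG and IF1-KO mice was 0.09 (95% confidence interval -0.25 to 0.43), that between IF1-TG and CRL mice was -0.09 (-0.43 to 0.24) and that between IF1-KO and CRL mice was -0.19 (-0.53 to 0.15). A difference of 1.5-fold in the Map2 signal lay outside all 3 intervals. None of the 3 could be told from 0 in limma, with unadjusted P values of 0.546, 0.543 and 0.24.

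The dimmer Map2 probe followed the slide. Its signal was 1.01 to 1.34 on the 4 arrays of slide 2, 2.02 to 2.60 on the 3 arrays of slide 3 and 1.46 and 2.19 on those of slide 1. On slide 2 that range held all 3 genotypes. Its differences had standard errors of 0.44, and the interval between IF1-KO and CRL mice ran from -0.49 to 1.51. Within slide 3 the IF1-KO arrays lay 0.01 above the CRL array, against 0.51 over all arrays.

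MAP1A and MAP1B are large MAPs made as precursors and cleaved into heavy and light chains. MAP1B is known as the form of developing neurons and growing axons, and MAP1A as the form that prevails in the adult brain. Map1b, with probes whose starts lie 1903 bases apart on chromosome 13, is the gene on which the calls rest, so stretches of both probes are printed.
A_52_P360330 (brighter, chr13:100192506-100192565 of mm9): tctacagagactaaatcttagcgataatcc
A_55_P1964193 (dimmer, chr13:100194409-100194468 of mm9): ccttcctttgtcttgcattggctattttaa

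On the brighter Map1b probe the log2 signal was 0.88, 0.57 and 0.95 in IF1-TG mice 1 to 3, against -0.35, -0.11 and 0.34 in CRL mice. All 3 IF1-TG mice lay above all 3 CRL mice, and CRL replicate 3 lay apart from the other CRL mice towards the IF1-TG values. CRL replicate 3 also had the highest summed striatum level, at 4.77 against 3.66 to 4.16 on the other arrays, and the lowest pan-neuronal level, at 7.73, and the part of these in its Map1b value was not tested. The fold change was 1.79 (95% confidence interval 1.32 to 2.44, unadjusted P = 0.00224, adjusted P = 0.38 from limma). The dimmer probe gave 0.64, 0.43 and 0.77 in IF1-TG mice and -0.35, -0.37 and 0.26 in CRL mice, a fold change of 1.70 (1.23 to 2.36, unadjusted P = 0.00528, adjusted P = 0.44 from limma). Both probes were called under all 18 alternatives, in which the difference on the brighter probe ranged from 0.69 without CRL replicate 1 to 1.05 with slide as a fixed block. Their adjusted P values from limma ranged from 0.159 to 0.822 and from 0.201 to 0.822 over these alternatives. Within slide 2, where 1 IF1-TG mouse met 2 CRL mice, the differences were 1.18 and 1.13.

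In IF1-KO mice Map1b lay between the other genotypes. The brighter probe gave 0.67, 0.35 and 0.51, above all CRL mice, and the dimmer gave 0.63, 0.15 and 0.45, where replicate 2 lay below CRL replicate 3. The differences from CRL mice were 0.55 (standard error 0.19, unadjusted P = 0.0209, adjusted P = 1.00 from limma) and 0.57 (standard error 0.21, unadjusted P = 0.0243, adjusted P = 1.00 from limma), just below the fold that makes a call. Without CRL replicate 3 or without IF1-KO replicate 2 both probes were called, at 0.74 and 0.77 and at 0.63 and 0.70. After dropping the array that carries the label IF1-KO 1, the differences were 0.47 and 0.46 (unadjusted P = 0.0694 and 0.0848 from limma). They differed between slides, at 0.90 and 0.99 within slide 2 and 0.09 and 0.04 within slide 3. The slide 2 values rest on IF1-KO replicate 1 alone, the array on which Atpif1 was not reduced, and those of slide 3 on the other IF1-KO arrays against 1 CRL array. The difference between IF1-TG and IF1-KO mice was 0.29 (95% confidence interval -0.16 to 0.73) on the brighter probe and 0.20 (-0.27 to 0.68) on the dimmer. The mean levels rose in the order CRL, IF1-KO and IF1-TG on both probes, and neither neighbouring pair in that order was called.

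**Figure D2:**
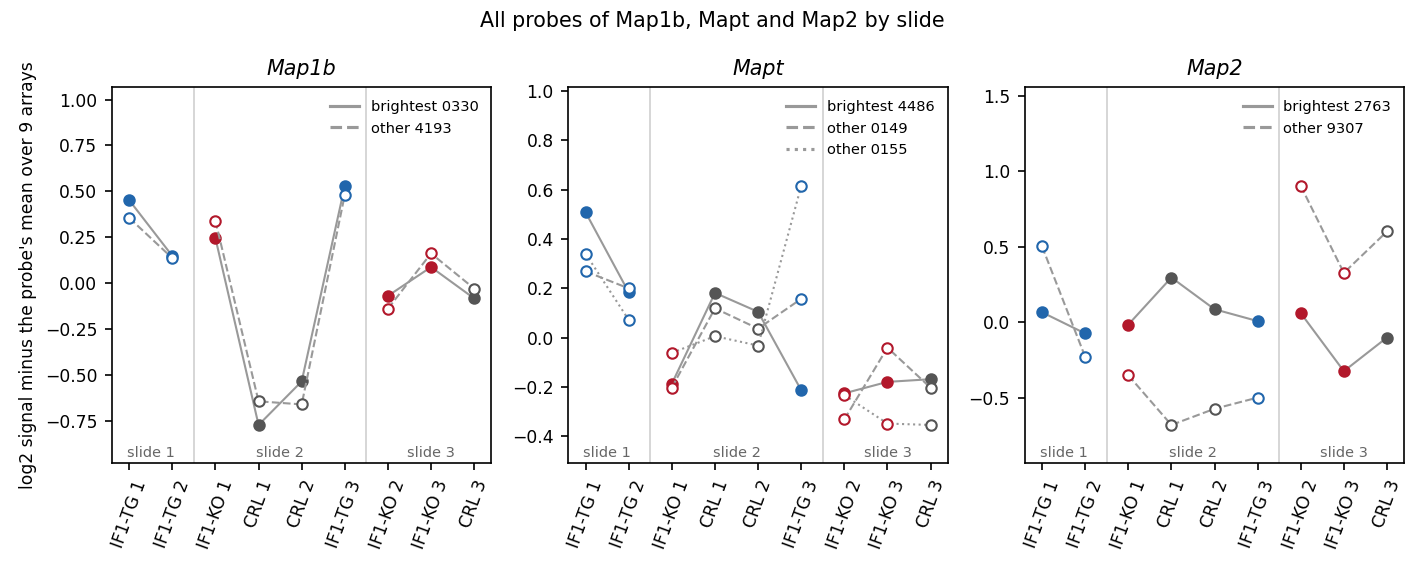
Log2 signal of every probe of Map1b, Mapt and Map2 minus the mean of the probe over the 9 arrays (y axis), with arrays ordered by slide (x axis), colour for genotype, filled points for the brightest probe and lines joining arrays of a slide. Both probes of Map1b are lowest in CRL replicates 1 and 2, and the dimmer Map2 probe is highest on slide 3.

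The promoter of Map1b is shown because its probes were the ones called. The 250 bases before its start in RefSeq (GRCm38.p6, minus strand, chr13:99516603-99516852) have a GC content of 66.4%, against a median of 52.4% over all promoters of the table. Capitals mark the letters GGGCGG, the core of the box that Sp1 binds.
Map1b: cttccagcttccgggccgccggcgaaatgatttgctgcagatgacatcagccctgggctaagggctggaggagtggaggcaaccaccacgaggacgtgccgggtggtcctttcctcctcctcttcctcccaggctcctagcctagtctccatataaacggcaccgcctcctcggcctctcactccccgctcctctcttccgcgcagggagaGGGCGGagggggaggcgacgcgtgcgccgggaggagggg

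On either strand this window held 1 match to GGGCGG and 1 to TATAAA, the letters of a TATA box. It held 0 matches to CCAAT, to CACGTG and to TGACG. None of these letter strings contains another. Of 32851 promoters of the same length, 32.7% held GGGCGG, 12.4% TATAAA, 33.8% CCAAT, 6.02% CACGTG and 17.8% TGACG.

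Map1a, the adult relative, had a pair of probes on chromosome 2 (chr2:121134341-121134400 and chr2:121136464-121136523 of mm9). The brighter gave 2.14, 2.26 and 2.21 in IF1-KO mice, 1.99, 2.09 and 2.08 in CRL mice and 1.99, 2.12 and 2.29 in IF1-TG mice. IF1-KO mice lay above CRL mice without overlap, by 0.15 (95% confidence interval -0.11 to 0.41). The dimmer probe did not share this, at -0.01 (-0.25 to 0.22). Between IF1-TG and CRL mice the probes gave 0.08 and 0.14, and for IF1-TG against IF1-KO mice -0.07 and 0.15. All intervals of Map1a lay within a fold change of 1.5.

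Tau, encoded by Mapt, is the axonal MAP whose phosphorylated form builds the tangles of Alzheimer disease. It had 3 probes on chromosome 11. The starts of the brighter pair lie 66 bases apart, and the third lies 3745 bases further on.
A_55_P1954486 (brightest, chr11:104189430-104189489 of mm9): atggtggactcaccacagcttgccacacta
A_55_P2100149 (chr11:104189496-104189555 of mm9): ttgtgatcaggctcccagggcagtcaataa
A_55_P2100155 (dimmest, chr11:104193241-104193300 of mm9): atgatttctttggtgattttgagggtgggg

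The brightest probe gave 5.55, 5.51 and 5.56 in IF1-KO mice, 5.92, 5.84 and 5.57 in CRL mice and 6.24, 5.92 and 5.52 in IF1-TG mice. IF1-TG replicate 3 lay among the IF1-KO mice, and the difference between IF1-TG and IF1-KO mice was 0.36 (95% confidence interval -0.07 to 0.78, unadjusted P = 0.0883 from limma). It was 0.18 without IF1-TG replicate 1, and leaving out replicate 3 instead gave 0.54 (unadjusted P = 0.0094 from limma). With slide as a fixed block it turned to -0.13. The second probe gave 5.31, 5.18 and 5.47 in IF1-KO mice, 5.63, 5.55 and 5.31 in CRL mice and 5.78, 5.71 and 5.67 in IF1-TG mice, which lay above all other arrays. Its difference between IF1-TG and IF1-KO mice was 0.40 (0.11 to 0.70, unadjusted P = 0.0137, adjusted P = 0.66 from limma).

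The distal Mapt probe gave 2.39, 2.22 and 2.10 in IF1-KO mice, 2.46, 2.42 and 2.10 in CRL mice and 2.79, 2.52 and 3.07 in IF1-TG mice. Here too IF1-TG mice lay above all others, with replicate 3 the highest, the replicate that was lowest of the IF1-TG mice on the brightest probe. The difference was 0.56 from IF1-KO mice (standard error 0.17, unadjusted P = 0.0109, adjusted P = 0.66 from limma) and 0.47 from CRL mice (standard error 0.17, unadjusted P = 0.0243, adjusted P = 0.55 from limma), below the fold that makes a call. After dropping the array that carries the label IF1-KO 1, the first was 0.63 and the probe was called, as it was without IF1-TG replicate 2 (0.69), where it was also called against CRL mice (0.61). Within slide 2 these differences were 0.68 and 0.63. The brightest probe gave -0.03 and -0.36 there, against 0.36 and 0.12 over all arrays, and the second probe gave 0.36 and 0.08. All 3 probes were lower in IF1-KO than in CRL mice, by -0.24, -0.18 and -0.09, with intervals that all held 0. On the brightest probe the IF1-KO mice lay just below the CRL mice without overlap.

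**Figure D3:**
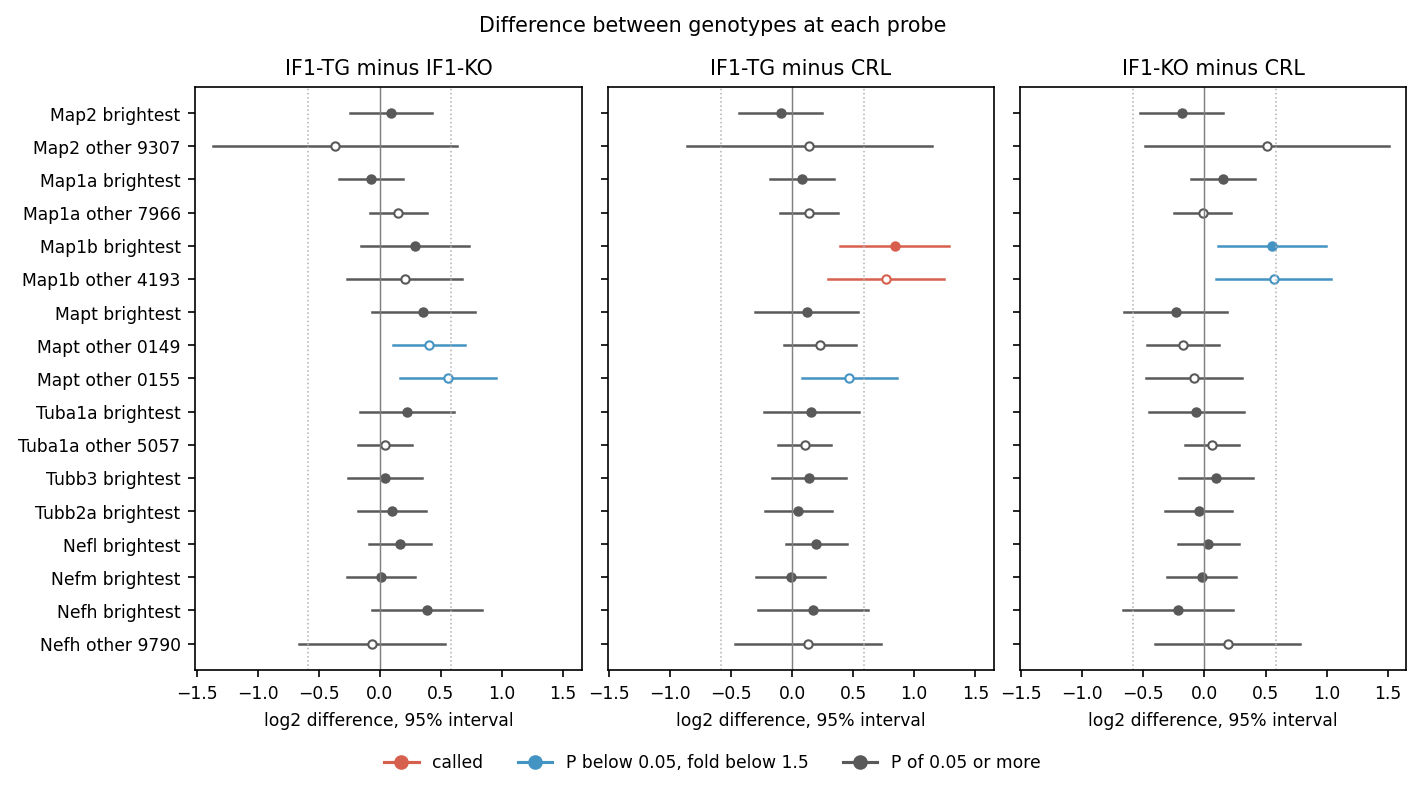
Log2 difference between genotypes (x axis) for each probe (y axis), with the 95% confidence interval from limma and dotted lines at a fold change of 1.5. Filled points are the brightest probe of a gene, red marks called probes and blue those below an unadjusted P of 0.05 at a smaller fold. The 2 probes of Map1b are called between IF1-TG and CRL mice, and the intervals of most other probes hold 0.

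Among the tubulins, the subunits of the microtubule itself, no difference reached an unadjusted P of 0.05. Tuba1a encodes the main alpha-tubulin of developing neurons, Tubb3 a beta-tubulin largely restricted to neurons among brain cells, and Tubb2a another abundant beta-tubulin. The brighter Tuba1a probe (chr15:98780307-98780364 of mm9) gave 5.63, 5.82 and 5.66 in IF1-KO mice, 5.57, 6.08 and 5.66 in CRL mice and 6.00, 6.08 and 5.69 in IF1-TG mice. The genotypes overlapped, with CRL replicate 2 as high as the highest IF1-TG mouse. The difference between IF1-TG and IF1-KO mice was 0.22 (95% confidence interval -0.16 to 0.61), and it was 0.16 between IF1-TG and CRL mice (-0.23 to 0.54). The first ranged from 0.14 to 0.34 with an array left out, without IF1-TG replicate 2 and 3 in turn, and the second from 0.057 without CRL replicate 1 to 0.31 without CRL replicate 2.

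The other Tuba1a probe is placed by the deposited annotation on chromosome 12, not on the chromosome of the gene, so which locus it reads is uncertain. It varied little within genotypes, at 5.35 to 5.37 in IF1-TG mice, 5.29 to 5.34 in IF1-KO mice and 5.22 to 5.33 in CRL mice. IF1-TG mice lay above all others, by 0.04 and 0.10, with unadjusted P values of 0.663 and 0.305 from limma. It is 1 of 3 probes of these genes that hold AATAAA, the signal for the addition of the poly(A) tail, as do 12.6% of all probes. The 30 bases around it are shown, with the signal in capitals, because this signal lies near the end of a transcript.
Tuba1a A_55_P2115057, bases 23 to 52: tgatgggttttaAATAAAatactccctgtc
Tubb3 A_55_P2041828, bases 23 to 52: aggggtatacttAATAAAgttactgctgtc
Nefh A_55_P2053181, bases 22 to 51: ttgcttccatgcAATAAAaccaagtgcttc

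Tubb3 (chr8:125945850-125945909 of mm9) gave 1.99, 2.25 and 1.93 in IF1-KO mice, 1.90, 2.04 and 1.94 in CRL mice and 1.94, 2.11 and 2.25 in IF1-TG mice. The groups overlapped in all comparisons, and the differences were 0.04 between IF1-TG and IF1-KO mice, 0.14 between IF1-TG and CRL mice and 0.10 between IF1-KO and CRL mice, with intervals within -0.26 and 0.44. Tubb2a (chr13:34166253-34166311 of mm9) ranged from 6.08 to 6.41 over the 9 arrays. Its differences were 0.10, 0.05 and -0.05 in the same order, with intervals within -0.32 and 0.38. A difference of 1.5-fold lay outside these intervals for both.

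Whether paralogs such as Tuba1b and Tubb2b share signal with these probes was not tested. Tuba1b gave 0.22 and 0.29 for IF1-TG against IF1-KO and CRL mice on its brighter probe (95% confidence intervals -0.08 to 0.52 and -0.01 to 0.59). Its other probe gave -0.01 (-0.50 to 0.47) and 0.35 (-0.14 to 0.83). The brighter Tubb2b probe varied more between mice than any tubulin probe above, from 1.29 to 3.98 within the IF1-TG mice alone. The interval of its difference from CRL mice ran from -1.48 to 1.27. The dimmer Tubb2b probe gave -0.13 (-0.85 to 0.60) against IF1-KO mice and 0.12 (-0.61 to 0.84) against CRL mice.

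For the 3 neurofilament chains no difference between genotypes reached an unadjusted P of 0.05 in limma. Nefl, the light chain that nucleates the filament, lies on chromosome 14 (chr14:68705638-68705698 of mm9), as does Nefm.
Nefl A_51_P339934: gactttcaatgtgtgctatgaatttcctcc
Nefm A_51_P145220: ggaggcgatggtgctaccaaatacatcacc
Nefh A_55_P2099790: agcaaacccaagacagaaaaggctgaaaaa

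Nefl gave 4.50, 4.31 and 4.51 in IF1-KO mice, 4.47, 4.38 and 4.38 in CRL mice and 4.64, 4.50 and 4.68 in IF1-TG mice. All IF1-TG mice lay above all CRL mice, and IF1-TG replicate 2 lay below IF1-KO replicate 3. The difference was 0.20 from CRL mice (95% confidence interval -0.05 to 0.45, unadjusted P = 0.108 from limma) and 0.17 from IF1-KO mice (-0.08 to 0.42). It was 0.26 from CRL mice within slide 2.

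Nefm, the medium chain (chr14:68738193-68738252 of mm9), is printed as 10 spots on each array, which gives a measure of the technical error. The SD between these spots on an array ranged from 0.05 to 0.32 with a median of 0.15, and their mean ranged from 1.11 to 1.48 over the arrays. Both extremes were IF1-TG mice, replicate 3 and replicate 1. The differences between genotypes were 0.01, -0.01 and -0.02, and their intervals lay within -0.31 and 0.29.

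Nefh, the heavy chain whose phosphorylated tail spaces the filaments, had a pair of probes on chromosome 11 (chr11:4838758-4838817 and chr11:4839396-4839455 of mm9). The brighter gave 3.07, 2.23 and 2.73 in IF1-KO mice, 2.80, 2.95 and 2.94 in CRL mice and 2.98, 3.1 and 3.11 in IF1-TG mice. IF1-TG mice lay above CRL mice without overlap, while IF1-KO mice ranged from 2.23 to 3.07. The difference between IF1-TG and IF1-KO mice was 0.39 (95% confidence interval -0.06 to 0.83, unadjusted P = 0.0829 from limma), 0.58 after dropping the array that carries the label IF1-KO 1, and 0.16 without IF1-KO replicate 2. IF1-KO replicate 2 also had the lowest summed level of 12 oligodendrocyte markers, at 6.67 against 7.13 to 7.54 on the other arrays, and the part of these cells in the Nefh value was not tested. The dimmer Nefh probe gave -0.06 for that difference (-0.66 to 0.54).

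Ina encodes alpha-internexin, which assembles with the neurofilament chains in the brain, and Prph encodes peripherin, found mainly in peripheral neurons. Ina gave 4.15, 3.71 and 3.90 in IF1-KO mice, 4.17, 4.14 and 3.79 in CRL mice and 4.36, 4.36 and 4.43 in IF1-TG mice, which lay above all others. The difference was 0.46 from IF1-KO mice (standard error 0.15, unadjusted P = 0.016, adjusted P = 0.66 from limma) and 0.34 from CRL mice (unadjusted P = 0.0527 from limma), below the fold that makes a call. Prph varied from -2.44 to -0.81 over the arrays and was not called.

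Over 8 lists of related genes, 6 of 175 measured genes (3.43%) were called by the brightest probe between IF1-TG and IF1-KO arrays, 5 (2.86%) between IF1-TG and CRL arrays and 0 between IF1-KO and CRL arrays, beside the 3.68%, 4.31% and 1.02% of all genes. In the first comparison 3 of 17 other tubulin genes were called, 1 of them (Tubal3) at background in IF1-TG mice. Tuba3a was higher by 0.82 (standard error 0.33) and its other probe gave 0.81. Tubd1, which encodes delta-tubulin of centrioles, was lower by a difference of -0.60 (standard error 0.20). Tubal3 was not well above background on any IF1-TG array and passed the filter only through the CRL arrays, so no fold is given and nothing is read from its call. Between IF1-TG and CRL mice 1 was called, Tubb1, the beta-tubulin of platelets, which was well above background on only 1 IF1-TG array, so its difference is not given and nothing is read from its call either. The call of Tuba3a was lost without IF1-KO replicate 2 or 3, CRL replicate 2 or IF1-TG replicate 2 or 3, with a range of 0.59 to 1.01 over the 9 arrays left out. That of Tubd1 was lost without IF1-TG replicate 1 or 2 and after dropping the array that carries the label IF1-KO 1, at -0.56 in the last case, with a range of -0.76 to -0.52.

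Of 17 other structural MAPs 0 were called in any of the 3 comparisons by the brightest probe, with 0, 0 and 1 at an unadjusted P below 0.05 in limma. Of 6 other intermediate filament genes, Sync, which encodes syncoilin, was called between IF1-TG and CRL mice, at 1.09 (standard error 0.30, unadjusted P = 0.0063, adjusted P = 0.45 from limma), and in all 9 fits with 1 array left out. Its signal was -5.31, -4.29 and -5.15 in IF1-TG mice and -6.52, -5.82 and -5.68 in CRL mice, near the dim end of the array.

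Of 30 measured genes for microtubule dynamics, Katnal1, related to the microtubule-severing enzyme katanin, was higher in IF1-TG mice by 0.78 against IF1-KO and 0.61 against CRL mice. IF1-TG replicate 1 was missing there as an outlier spot, its other probe gave 0.07 and 0.02, and without IF1-TG replicate 3, which leaves 1 IF1-TG array, both calls were lost at 0.69 and 0.51. The second was also lost without CRL replicate 3, at 0.42. Of 29 kinases and phosphatases that act on tau and MAPs, Gsk3b, a major tau kinase, was higher by 0.72 and 0.85 on its brightest probe. Its signal there was 2.67, 2.43 and 3.30 in IF1-TG mice, 1.68, 2.01 and 2.54 in IF1-KO mice and 1.83, 2.26 and 1.77 in CRL mice. Its other probes gave 0.01 and -0.07 against IF1-KO mice and 0.20 and -0.15 against CRL mice, and both calls were lost without IF1-TG replicate 3, at 0.47 and 0.60. The first was also lost without IF1-KO replicate 2, at 0.69, and after dropping the array labelled IF1-KO 1, at 0.52, the second without CRL replicate 3, at 0.76. Fyn, a tyrosine kinase that binds tau, had a lower level in IF1-TG mice than in IF1-KO mice, at -0.83 (standard error 0.27). This call was lost without IF1-TG replicate 1, at -0.59.

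Of 40 measured kinesin and dynein motor genes, Kif1b, a motor for mitochondria and synaptic vesicle precursors, was called between IF1-TG and CRL mice, at 1.02 (standard error 0.41). CRL replicate 1 was missing there as an outlier spot, CRL replicate 2 had 2.95 against 4.37 to 4.96 on all other measured arrays, the difference was 0.27 without it, the call was also lost without IF1-TG replicate 1 or 3 (0.90 and 0.98), and through the pooled error alone without IF1-KO replicate 2 or 3 (1.02), and the other probe of the gene gave -0.04. Of 22 genes for tubulin modification and folding and 14 for the axon initial segment and cytoskeletal linkers, 0 were called in any comparison by the brightest probe, with 1, 2 and 0 and with 0, 0 and 1 at an unadjusted P below 0.05 in limma. Between IF1-KO and CRL mice no gene of these 8 related lists was called in limma by the brightest probe.

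**Figure D4:**
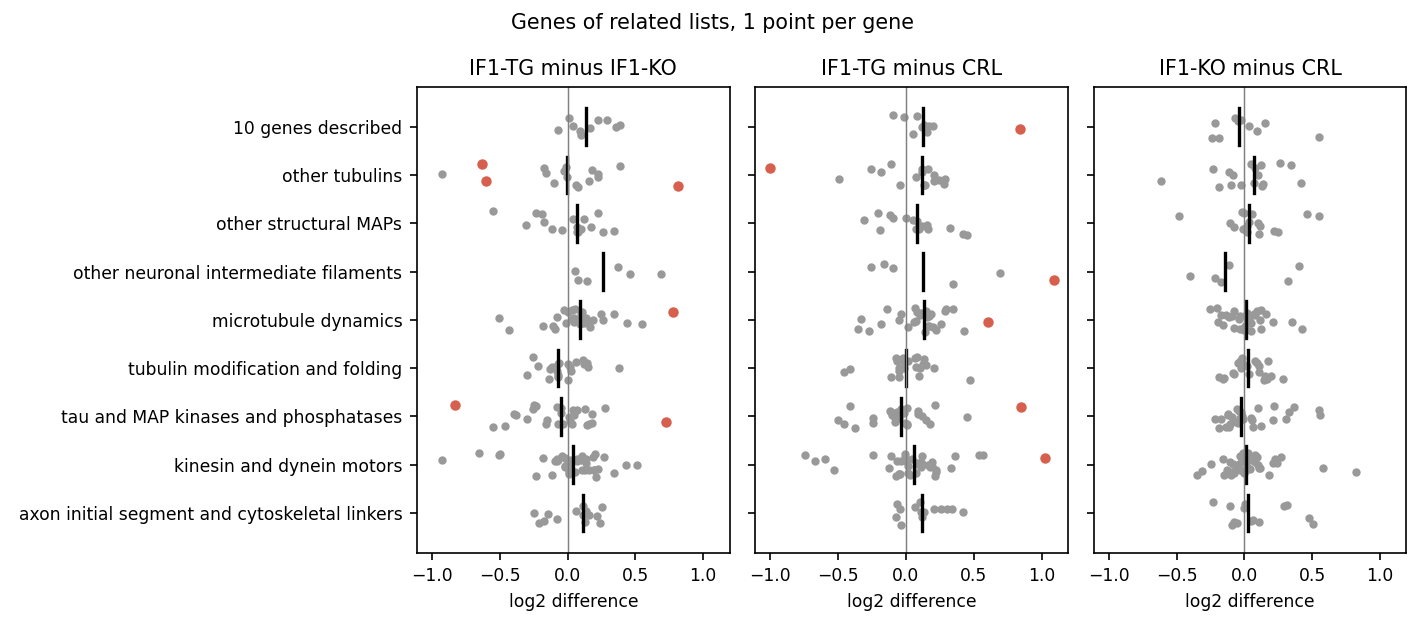
Log2 difference of the brightest probe of each gene (x axis) for the 10 genes described and 8 related lists (y axis), with red points for called genes and a black bar for the median of the list. The medians lie between -0.14 and 0.26, and no point is red between IF1-KO and CRL mice.

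The genes whose signal over the 9 arrays was most like that of Map2, by Pearson's r among 18129 other genes, were Ppp2r2b (0.95), Adam26a (0.94), Abcc5 (0.93), Wrn (0.92) and Hdac3 (0.92). For Nefl they were Nr3c2 (0.97), Gm10791 (0.97), 6030451C04Rik (0.97), Ehmt1 (0.96) and 2610028D06Rik (0.96). For Map1b, added after its values had been seen, they were Adam18 (0.98), Trpt1 (0.97), D830026I12Rik (0.97), D130017N08Rik (0.96) and Ccnk (0.96). No other gene of the 10 was among them. These are the extremes of many comparisons over 9 arrays that share genotypes and slides.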

How the data were processed

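Hippocampal RNA was hybridized in 1 color to Agilent mouse arrays, 3 per genotype. The authors deposited spot intensities from Agilent Feature Extraction 10.7.3.1, which subtracts background and detrends each array but does not scale arrays to each other. The software's flags for outliers and for spots well above background were used as deposited. Positions of probes come from the deposited annotation (mm9), and symbols were updated through RefSeq. Genotypes come from the sample labels and slides from the deposited array labels. The labels describe 1 mouse per array.

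Intensities were taken to log2 relative to the array's 75th percentile, outlier and control spots were dropped, and spots of a probe were averaged. A probe was kept when 1 genotype or more had it well above background in all 3 mice (27993 of 39429). No spot was saturated, and replicates correlated at 0.983 to 0.992. Precision is limited by the number of arrays.

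All 9 arrays entered 1 fit in limma 3.58.1 (R 4.3.3). The calls follow the study's thresholds, a fold change of 1.5 and an unadjusted P of 0.05, with Benjamini-Hochberg values beside. A gene is given by its brightest probe unless stated. Summed marker levels are log2 of the summed signals relative to the 75th percentile. The fit was tested on simulated data. The alternatives were normexp (offset 50) with quantile normalization, quantile normalization alone, no filter, a filter requiring all 9 arrays, values within slides, slide as a block (fixed or random), the replicate number as a block, eBayes with trend and robust options, a fit of only the 2 groups compared, any kept probe or the probe mean in place of the brightest, and each array left out in turn. Leaving arrays out was added for the related lists after seeing the data.

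The genes and lists were picked by name, but with earlier results of these data known, so the choice was not independent of the data. Named are all 10 genes with all probes, called genes of the related lists, Tuba1b and Tubb2b, Ina and Prph, the 5 genes most like Map2 and Nefl, and Atpif1. The 5 genes most like Map1b, Elavl4 and the called genes of the other marker lists were added after their values had been seen. Promoter sequences are those of RefSeq on GRCm38.p6, whose table holds 6 of the 10 genes.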

Additional observations from a re-analysis of the deposited data

How the results depend on the processing

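Both Map1b probes were called between IF1-TG and CRL mice under all 18 alternatives to which the calls were put, and the count of called probes was 2 or 3 there. Between IF1-TG and IF1-KO mice the count was 1 in place of 0 (the distal Mapt probe) after normexp with quantile normalization and with slide as a fixed block, and 0 to 1 with an array left out. Between IF1-KO and CRL mice it was 2 in place of 0 (both Map1b probes) after normexp with quantile normalization, and 0 to 2 with an array left out. Over all 27993 probes the calls moved too. They were 1056 for IF1-TG against IF1-KO, 1251 for IF1-TG against CRL and 298 for IF1-KO against CRL mice. In this order they were 569, 575 and 163 after normexp and 1438, 2245 and 239 with slide as a fixed block. With an array left out they were 617 to 1757, 990 to 1961 and 182 to 1019, the highest without IF1-TG replicate 2 in the first pair and without CRL replicate 3 in the last. The medians over the 17 probes ranged from 0.11 to 0.16, 0.095 to 0.17 and -0.023 to 0.017. The cause of these shifts was not tested.

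Differences were followed for the brightest probe of each gene and the other probes of Map1b and Mapt. Their sign changed in 40 of 720 values from other fits and in 12 of 52 values within slides, totals that include the called differences. The called differences kept their sign. After normexp with quantile normalization, between IF1-TG and IF1-KO mice Map1a was 0.078, between IF1-TG and CRL mice Tuba1a was -0.0077 and Nefm 0.0014, and between IF1-KO and CRL mice Tubb3 was -0.035 and Nefl -0.091. After quantile normalization alone, Tubb2a and Nefm were -0.016 and -0.0046 for IF1-TG against IF1-KO mice, and Tubb2a was -0.056 between IF1-TG and CRL mice. With slide as a fixed block, between IF1-TG and IF1-KO mice Map2 was -0.035, Map1a 0.13, Mapt -0.13, Tuba1a -0.029 and Nefm -0.13, between IF1-TG and CRL mice Mapt was -0.31 and Tuba1a -0.087, and between IF1-KO and CRL mice Tubb2a was 0.0059 and the distal Mapt probe 0.0075. With the mean of a gene's probes, between IF1-TG and IF1-KO mice Map2 was -0.14 and Map1a 0.042, and Map2 was 0.024 between IF1-TG and CRL mice and 0.16 between IF1-KO and CRL mice.

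Within slide 2, for IF1-TG against IF1-KO mice Map1a was 0.15, Mapt -0.027 and Nefm -0.18, against CRL mice Mapt was -0.36 and Tuba1a -0.13, and between IF1-KO and CRL mice Tubb2a was 0.0087, Nefm 0.029 and Nefh 0.20. Within slide 3 Tuba1a was 0.084, Tubb2a 0.0031 and the second and distal Mapt probes 0.017 and 0.063 in that last comparison.

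With 1 array left out, between IF1-TG and IF1-KO mice Map2 ranged from -0.022 to 0.17, Map1a from -0.15 to 0.0013, Tubb3 from -0.036 to 0.14 and Nefm from -0.082 to 0.10. Between IF1-TG and CRL mice Map2 ranged from -0.19 to 0.0074, Mapt from -0.054 to 0.31, Tubb2a from -0.016 to 0.12 and Nefm from -0.11 to 0.079. Between IF1-KO and CRL mice Tuba1a ranged from -0.17 to 0.090, Tubb3 from -0.00029 to 0.16, Tubb2a from -0.10 to 0.017, Nefl from -0.0057 to 0.094, Nefm from -0.072 to 0.021 and Nefh from -0.41 to 0.0082.

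No sign was seen that the replicate numbers pair the mice, though 3 arrays per genotype cannot exclude it. Of 9 correlations between the deviations of arrays with the same number, 1 was over 0.1, and they ranged from -0.165 to 0.116. With the replicate number as a block the counts of called probes were 0, 2 and 0, as without it. Arrays of a slide correlated at 0.0819 in the fit with slide as a random block. By any kept probe in place of the brightest, Dclk1, Dst, Dpysl3 and Sptbn1 joined the called genes of the related lists between IF1-TG and IF1-KO mice. Dst, Sptbn1 and Kif1c joined them between IF1-TG and CRL mice. Kif1c was also called between IF1-KO and CRL mice, where no gene was called by the brightest probe. The number of arrays, 3 per genotype, and the confounding of slide 1 with IF1-TG limit all comparisons, and dim probes such as those of Sync, Tubb1 and Tubal3 lie nearest to background.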
